A study of Mus musculus with 9 samples.

Results

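RNA sequencing was used to follow 45 genes, Myc and 44 genes whose products make ribosomes, in the mouse dendritic cell line DC 2.4. The genes were chosen by name from the 21959 genes of the deposited table, and all 45 were found in it and passed the filter on low counts. The series holds 9 libraries of total RNA, 3 in each of the groups OMVSSDC, ZJDC and PBSDC, which are named only in the sample titles. The series text says that DC2.4 cells were given engineered vesicles called EMV@SS. What OMVSS and ZJ stand for is not recorded, nor is a dose, a time or a separate culture for any group. PBSDC served as the reference because PBS is the usual short name of phosphate-buffered saline. Every library came from the same line, so each p-value measures the spread between libraries of 1 line, which may be technical.

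Myc is a transcription factor that binds DNA together with its partner Max, most strongly at the E-box CACGTG, and genes of ribosome production are among its best known targets. In the nucleolus, RNA polymerase I copies the ribosomal DNA into a long precursor RNA. Small nucleolar ribonucleoproteins (snoRNPs) modify this precursor, a large assembly called the small subunit processome cuts and folds it, and further factors build the small (40S) and the large (60S) subunit. Ribosome production is one of the costliest activities of a growing cell. In the Gene Ontology terms of the deposited table, 43 of the 45 genes are placed in the nucleolus, against 4.01% of all genes. Ltv1, a factor of late small subunit maturation, and Ddx10, an RNA helicase, are the exceptions.

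Promoter sequences are shown first because the E-box is the letter pattern by which Myc is known. RefSeq promoter windows of mouse build GRCm38.p6 were matched for 38 of the 45 genes, and in each the 250 bases before the start were searched for CACGTG, which reads the same on both strands. No window was matched for Myc, Fbl, Npm1, Nol6, Rrp12, Bop1 and Rrs1. Only the first listed window of a gene was used, although Ubtf has 6, Wdr12 3 and Noc2l 2. Bases after the start were not searched. The E-box stood in 3 of the 38 windows (7.89%), against 6.05% of 27025 windows of all genes and 8.57% of 9252 windows of genes tested here. CCGGAAG, the core of the ETS motif common in promoters of housekeeping genes, was searched on both strands and stood in 8 of the 38 windows (21.1%), against 7.05% of all windows and 14.7% of those of tested genes. The windows below are those of the 3 genes with an E-box and, for comparison, of Ncl, the gene with the largest fall, whose window has none. They are written 5′ to 3′ in the direction of transcription, with the E-box in capitals.
Rrn3, chr16:13780449-13780698, forward strand: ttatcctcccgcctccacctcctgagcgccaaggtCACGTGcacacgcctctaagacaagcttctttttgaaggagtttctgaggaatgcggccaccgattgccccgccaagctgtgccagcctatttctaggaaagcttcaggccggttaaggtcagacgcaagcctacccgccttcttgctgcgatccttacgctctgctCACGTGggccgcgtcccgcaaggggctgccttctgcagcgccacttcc
Imp4, chr1:34439579-34439828, forward strand: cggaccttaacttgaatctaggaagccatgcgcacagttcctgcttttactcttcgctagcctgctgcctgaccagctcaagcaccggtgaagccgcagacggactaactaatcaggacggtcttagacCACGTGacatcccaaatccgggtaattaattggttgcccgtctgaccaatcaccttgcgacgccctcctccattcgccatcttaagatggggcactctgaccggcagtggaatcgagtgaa
Nop2, chr6:125131633-125131882, forward strand: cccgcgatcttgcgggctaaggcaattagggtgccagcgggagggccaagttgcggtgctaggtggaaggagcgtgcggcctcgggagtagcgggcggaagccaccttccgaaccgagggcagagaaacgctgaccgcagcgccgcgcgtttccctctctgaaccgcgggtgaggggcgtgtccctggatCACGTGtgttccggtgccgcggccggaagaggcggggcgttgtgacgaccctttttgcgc
Ncl, chr1:86359456-86359705, reverse strand: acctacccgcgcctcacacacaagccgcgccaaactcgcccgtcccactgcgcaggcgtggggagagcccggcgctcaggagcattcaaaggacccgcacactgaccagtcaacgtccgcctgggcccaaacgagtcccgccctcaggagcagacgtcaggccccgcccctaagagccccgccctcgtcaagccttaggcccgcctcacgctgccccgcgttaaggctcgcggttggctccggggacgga
Rrn3 holds the E-box at 2 places, 215 and 48 bases before the start. Imp4 has it at 121 bases and Nop2 at 60 bases. All 3 genes were lower in both OMVSSDC and ZJDC than in PBSDC, with log2 fold changes from -1.28 to -0.69 in OMVSSDC against PBSDC. The 35 matched genes without the motif ranged from -1.94 to 0.92, and 32 of them were called lower. Their median was -0.93, against -1.05 for the 3 genes with the motif, a description of these windows only.

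Library totals ranged from 12784931 to 18388959 counts, so a gene with 0 counts could still lie at up to 0.163 to 0.235 CPM (3 counts; CPM is the count scaled to a fixed library total). OMVSSDC replicate 3 stood apart from its group over all genes. Its chi-square per degree of freedom was 62.4 and 65.1 against OMVSSDC replicates 1 and 2, but 7.75 to 10.7 against the ZJDC libraries. The values within groups were 1.89 between OMVSSDC replicates 1 and 2, 2.57 to 9.01 among ZJDC libraries and 2.82 to 3.97 among PBSDC libraries. The fits were therefore repeated without this library, and with it as the only OMVSSDC library (7 libraries in all). The latter fit has 1 OMVSSDC library and takes its spread from ZJDC and PBSDC alone. Single genes in OMVSSDC are therefore given by log2 fold change only in that fit. In OMVSSDC against PBSDC, 38 of the 45 genes kept their log2 fold change within 1.5 times of the value from all libraries in both repeats, and both values are given beside the other 7 (Myc, Nop10, Rrp9, Imp3, Ltv1, Ddx10 and Nip7). Of 19 dendritic and myeloid markers, 13 averaged over 1 CPM, among them Ptprc, Spi1, Csf1r, Irf8 and Cd74. Their sum was 4888 to 5253 CPM in OMVSSDC, 4919 to 4982 CPM in ZJDC and 4949 to 5098 CPM in PBSDC. Single myeloid markers within this sum moved in opposite directions. Lyz2 had 269 to 342 CPM in OMVSSDC, 268 to 281 CPM in ZJDC and 798 to 824 CPM in PBSDC, and Csf1r and Itgam were likewise lower in every OMVSSDC and ZJDC library than in any PBSDC library. Cd68 had 1200 to 1780 CPM in OMVSSDC, 1484 to 1580 CPM in ZJDC and 814 to 832 CPM in PBSDC, and Cd74 had 760 to 782, 730 to 737 and 382 to 404 CPM in those groups. The defining dendritic markers H2-Aa, H2-Ab1, H2-Eb1, Flt3, Clec9a and Xcr1 were at or near 0 in every library, at most 0.563 CPM, and Itgax lay between 1.61 and 4.83 CPM. Epithelial markers summed to at most 0.49 CPM and lymphoid markers to at most 1.23 CPM, with Krt19, Cd3e, Cd3g and Nkg7 at 0 throughout. Erythroid and granulocyte markers summed to 10.1 CPM in OMVSSDC replicate 1, mostly from Hba-a1 (4.22 CPM) and Hbb-bs (3.45 CPM). In every other library their sum was 0.28 to 1.63 CPM. The 10 heart or brain markers, 5 of which averaged over 1 CPM, summed to 7.21 to 20.9 CPM in OMVSSDC, 19.4 to 23.8 CPM in ZJDC and 32.4 to 34.2 CPM in PBSDC. The 8 fibroblast or endothelial markers, 6 of them over 1 CPM on average, summed to 11.0 to 30.7 CPM in OMVSSDC, 16.3 to 21.5 CPM in ZJDC and 25.9 to 30.6 CPM in PBSDC. OMVSSDC replicate 3 had the highest fibroblast or endothelial sum of all 9 libraries, 30.7 CPM, but PBSDC replicates 1 and 3 were level with it at 30.6 and 30.5 CPM. OMVSSDC replicates 1 and 2 had the lowest, 11.5 and 11.0 CPM. Their heart or brain sums, 7.21 and 7.51 CPM, were also the lowest, against 20.9 CPM in replicate 3. Col3a1, Dcn, Snap25, Syt1 and Actc1 had 0 counts in OMVSSDC replicates 1 and 2 and were counted in every other library. Other markers of these lists, such as Pdgfra and Map2, were counted in all 9 libraries. The part of these markers in the results below was not tested.

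The 45 genes took a smaller share of the RNA in both OMVSSDC and ZJDC than in PBSDC. Summed over the genes, they held 0.470%, 0.470% and 0.511% of all counts in the 3 OMVSSDC libraries, 0.568%, 0.562% and 0.549% in the ZJDC libraries and 1.03% in each of the 3 PBSDC libraries. No OMVSSDC or ZJDC library came near the PBSDC share, and every OMVSSDC library lay below every ZJDC library. Nucleolin (Ncl) and nucleophosmin (Npm1) supplied a large part of these counts. Without them the shares were 0.349%, 0.346% and 0.341% in OMVSSDC, 0.371%, 0.371% and 0.374% in ZJDC and 0.625%, 0.641% and 0.638% in PBSDC. The order of the groups was the same with and without this pair of genes. Counts are relative to the library total and come from many cells at once. Less RNA of these genes per cell, fewer cells that make it and more RNA of other genes therefore cannot be told apart.

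**Figure D1:**
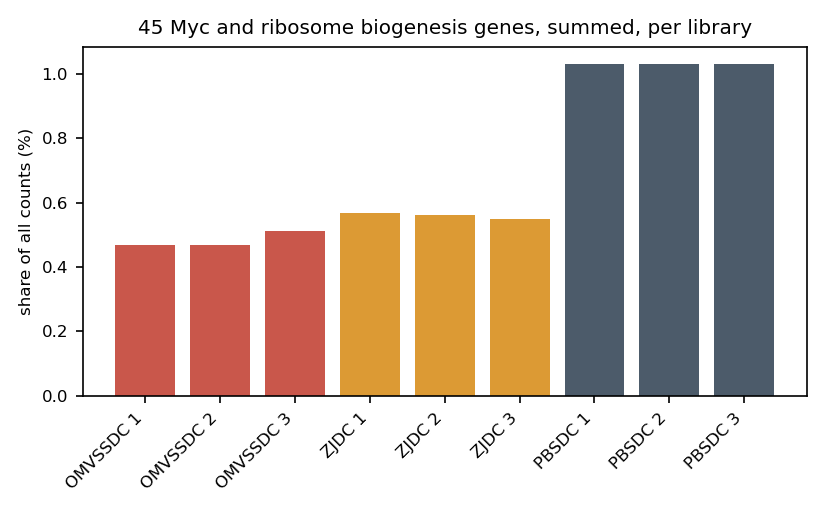
Summed share of all counts (%, axis from 0) taken by the 45 genes, 1 bar per library, with OMVSSDC in red, ZJDC in orange and PBSDC in grey. The OMVSSDC bars reach 0.470% to 0.511% and the ZJDC bars 0.549% to 0.568%, all well below the 1.03% of the PBSDC bars.

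Gene by gene, 42 of the 45 genes were called lower in OMVSSDC than in PBSDC (edgeR quasi-likelihood F-test, Benjamini-Hochberg adjusted p under 0.05 over 11568 genes), where 30.2% of all tested genes were called lower. Imp3 alone was called higher, where 33.4% of all tested genes were. Rrp9 and Nip7 missed the threshold. The median log2 fold change of the 45 genes was -0.97, against 0.05 over all tested genes. In 21 of them the fall was over 2-fold, against 6.87% of all tested genes, and this count was 9 when libraries were scaled by their totals alone. In 43 genes every OMVSSDC library lay below every PBSDC library, a pattern found in 31.8% of all tested genes.

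ZJDC against PBSDC gave much the same count. There 42 of the 45 genes were called lower, where 27.1% of all tested genes were. None was called higher, at an unadjusted p under 0.05 either, by edgeR, DESeq2 or limma-voom (0 genes by each), where 27.6% of all tested genes were called higher. Myc, Imp3 and Ddx10 missed the threshold. The median log2 fold change was -0.82, against 0.01 over all tested genes, and 11 genes fell by over 2-fold, against 3.89% of all tested genes. Every ZJDC library lay below every PBSDC library for 44 genes, against 36.0% of all tested genes. Both comparisons share the 3 PBSDC libraries, so they are not independent of each other.

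**Figure D2:**
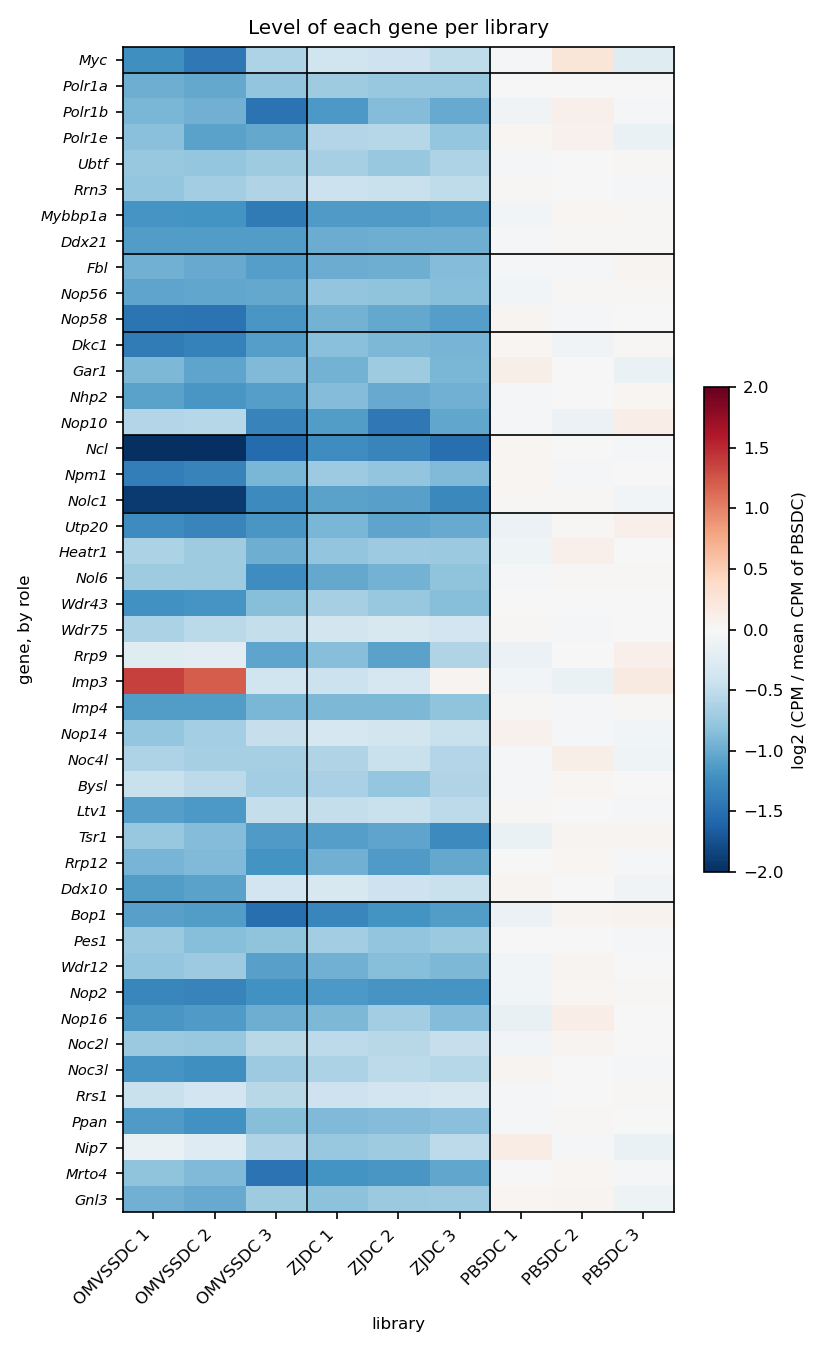
Level of each of the 45 genes in each library as log2 of its CPM over the mean CPM of PBSDC (blue, below that mean; red, above it), with genes down the page by role and OMVSSDC, ZJDC and PBSDC libraries from left to right. OMVSSDC and ZJDC columns are blue for nearly all genes, and the red cells of Imp3 in OMVSSDC replicates 1 and 2 (44.2 and 39.7 CPM) contrast with OMVSSDC replicate 3 (13.0 CPM).

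Myc, the transcription factor, had 11.5, 10.1 and 17.7 CPM in OMVSSDC, 20.5, 20.3 and 19.1 CPM in ZJDC and 26.4, 32.1 and 22.8 CPM in PBSDC. The 3 groups did not overlap, and OMVSSDC replicate 3 lay nearest to the ZJDC libraries. In OMVSSDC against PBSDC Myc fell by 1.05 on the log2 scale (SE 0.198, adjusted p 0.000998), to 0.482 of the PBSDC level. In ZJDC against PBSDC the log2 fold change of -0.44 (SE 0.192) missed the threshold at an adjusted p of 0.075, and 2 SE to either side ran from -0.83 to -0.06. It passed at almost the same size without OMVSSDC replicate 3 (adjusted p 0.000361), without OMVSSDC replicate 2 (adjusted p 0.0475) and with replicate 3 as the only OMVSSDC library (adjusted p 0.000507). OMVSSDC against ZJDC gave -0.61 (SE 0.199, adjusted p 0.0915), and without OMVSSDC replicate 3 it gave -0.89 (adjusted p 1.53e-06). With replicate 3 alone the value was -0.18. Myc in OMVSSDC against PBSDC was -1.34 (adjusted p 2.41e-10) without replicate 3 and -0.62 with replicate 3 as the only OMVSSDC library.

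RNA polymerase I and its regulators are represented by 7 genes, and all 7 were called lower in both comparisons with PBSDC. The shares of all tested genes called lower, 30.2% in OMVSSDC and 27.1% in ZJDC, apply to the counts of every role group. Their median log2 fold change was -0.97 in OMVSSDC and -0.74 in ZJDC. Mybbp1a, a nucleolar protein that binds Myb and takes part in ribosomal RNA processing, had both the largest fall and the highest CPM of this group. It had 272, 271 and 233 CPM in OMVSSDC, 282, 281 and 288 CPM in ZJDC and 596, 632 and 627 CPM in PBSDC. Every OMVSSDC and ZJDC library was thus below every PBSDC library, and OMVSSDC replicate 3 was the lowest of all. The log2 fold change was -1.26 in OMVSSDC (SE 0.071, adjusted p 2.98e-07) and -1.13 in ZJDC (adjusted p 9.38e-07). Ddx21, a nucleolar RNA helicase, fell by 1.11 and 0.98 on the log2 scale in OMVSSDC and ZJDC, with replicate values within 198 to 199 CPM in OMVSSDC. The catalytic core subunits Polr1a and Polr1b fell by 0.93 and 1.09 in OMVSSDC. Smaller falls were measured for Ubtf, the factor that opens ribosomal DNA, at -0.75, and for Rrn3, which links the polymerase to its promoter, at -0.69.

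The box C/D snoRNP, which methylates ribosomal RNA, is represented by 3 core proteins, all called lower in OMVSSDC and in ZJDC than in PBSDC. Nop58 fell most, with 121, 120 and 148 CPM in OMVSSDC, 174, 164 and 156 CPM in ZJDC and 345, 324 and 332 CPM in PBSDC. The 3 groups did not overlap. Its log2 fold change was -1.36 in OMVSSDC (SE 0.090, adjusted p 7.81e-07) and -1.02 in ZJDC (adjusted p 7.77e-06). Nop56, the partner of Nop58 and the most highly counted of the 3, had 176, 178 and 180 CPM in OMVSSDC, 212, 211 and 204 CPM in ZJDC and 355, 372 and 376 CPM in PBSDC. Here OMVSSDC replicate 3 was like replicates 1 and 2. The values were -1.04 in OMVSSDC (adjusted p 1.87e-07) and -0.82 in ZJDC (adjusted p 1.38e-06). Fbl, the methyltransferase fibrillarin, gave -1.02 and -0.95 in OMVSSDC and ZJDC.

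The box H/ACA snoRNP converts uridine to pseudouridine, and its 4 core genes were all called lower in both comparisons with PBSDC. Dkc1, the pseudouridine synthase dyskerin, had 74.7, 76.7 and 91.0 CPM in OMVSSDC, 110, 105 and 103 CPM in ZJDC and 202, 187 and 199 CPM in PBSDC. Its 3 groups did not overlap, and OMVSSDC replicate 3 was the highest of its group. It fell by 1.28 on the log2 scale in OMVSSDC (SE 0.082, adjusted p 6.93e-07) and by 0.89 in ZJDC (adjusted p 1.12e-05). Nhp2 fell by 1.11 and 0.94 and Gar1 by 0.95 and 0.86 in OMVSSDC and ZJDC. Nop10, the smallest core protein, had 20.4, 20.7 and 12.1 CPM in OMVSSDC, 14.1, 11.4 and 15 CPM in ZJDC and 30.3, 28.2 and 33.5 CPM in PBSDC. OMVSSDC replicate 3 sat among the ZJDC libraries, and the log2 fold changes were -0.79 in OMVSSDC (adjusted p 0.00429) and -1.17 in ZJDC (adjusted p 0.000498). In OMVSSDC the Nop10 value was -0.57 without replicate 3, where it was called lower, and -1.34 with replicate 3 alone.

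The nucleolar phosphoproteins had the largest median fall of the role groups, -1.67 in OMVSSDC and -1.14 in ZJDC, with all 3 called lower in each. Ncl, an abundant RNA-binding protein of the nucleolus, had 602, 616 and 952 CPM in OMVSSDC, 1166, 1112 and 972 CPM in ZJDC and 2828, 2741 and 2731 CPM in PBSDC. The groups did not overlap, but OMVSSDC replicate 3 lay closer to the ZJDC libraries than to OMVSSDC replicates 1 and 2. The fall was the largest of the 45 genes in both comparisons, -1.94 in OMVSSDC (SE 0.160, adjusted p 3.66e-06), or 0.261 of the PBSDC level, and -1.35 in ZJDC (adjusted p 5.48e-05), or 0.392 of it. Nolc1, a chaperone of snoRNPs, had 108, 108 and 170 CPM in OMVSSDC, 196, 194 and 167 CPM in ZJDC and 415, 418 and 397 CPM in PBSDC. Npm1, a histone and ribosome chaperone, fell by 1.19 in OMVSSDC and by 0.80 in ZJDC. Npm1 has many processed pseudogenes, and no source used here says how reads shared with them were counted.

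**Figure D3:**
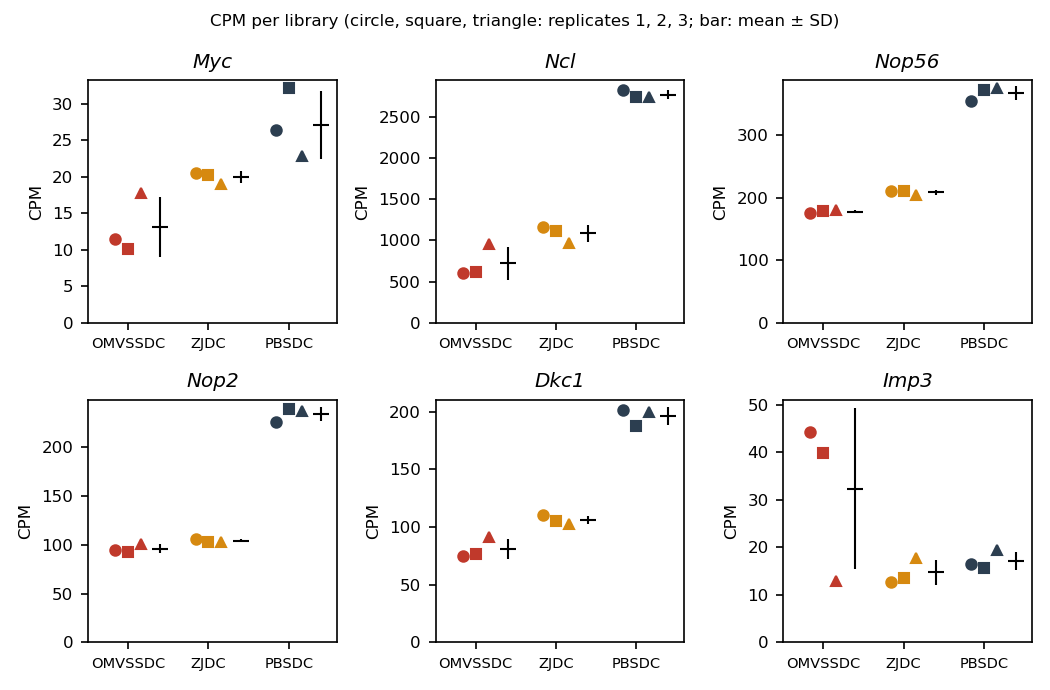
CPM of Myc, Ncl, Nop56, Nop2, Dkc1 and Imp3 in each library (axes from 0; circle, square and triangle are replicates 1, 2 and 3; black bars are mean ± SD, n = 3). The groups do not overlap for Myc, Ncl, Nop56, Nop2 and Dkc1, whereas Imp3 is high only in OMVSSDC replicates 1 and 2.

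The small subunit processome and the factors of 40S maturation form the largest role group, with 15 genes. In OMVSSDC 13 were called lower than in PBSDC, 1 higher and 1 neither, with a median log2 fold change of -0.81. In ZJDC 13 were called lower and 2 neither, with a median of -0.76. Utp20, a large scaffold protein of the processome, fell most in OMVSSDC, with 71.9, 68.8 and 76.8 CPM there, 91.4, 82.7 and 86.1 CPM in ZJDC and 159, 174 and 184 CPM in PBSDC. The groups did not overlap, and the log2 fold change was -1.25 in OMVSSDC (SE 0.077, adjusted p 5.23e-07) and -0.99 in ZJDC (adjusted p 3.52e-06). Wdr43, which acts in the early step that couples transcription to processing, had 132, 134 and 168 CPM in OMVSSDC, 191, 181 and 168 CPM in ZJDC and 304, 304 and 305 CPM in PBSDC. OMVSSDC replicate 3 was level with ZJDC replicate 3, and both groups were far below PBSDC (-1.07 in OMVSSDC, adjusted p 6.31e-06, and -0.76 in ZJDC, adjusted p 9.26e-05). Tsr1 and Rrp12, factors of late 40S maturation, gave -0.90 and -0.99 in OMVSSDC and -1.14 and -1.04 in ZJDC, with no call between these groups. Ltv1 fell by 0.87 in OMVSSDC and by 0.48 in ZJDC. Its value in OMVSSDC was -1.13 without replicate 3, where it was called lower, and -0.48 with replicate 3 alone. That call of Ltv1 in ZJDC (adjusted p 0.0196) was lost without ZJDC replicate 1 (adjusted p 0.0546), ZJDC replicate 3 (0.0621), PBSDC replicate 1 (0.0575) or PBSDC replicate 2 (0.0524). Ddx10 fell by 0.81 in OMVSSDC, while its value of -0.39 in ZJDC missed the threshold at an adjusted p of 0.0653. Ddx10 in OMVSSDC was -1.09 without replicate 3, where it was called lower, and -0.39 with replicate 3 alone. In ZJDC Ddx10 passed without OMVSSDC replicate 1 (adjusted p 0.0406) or replicate 3 (5.73e-08).

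Imp3 and Rrp9, both proteins of the complexes that carry the U3 snoRNA, differed from the rest of this group. Imp3 had 44.2, 39.7 and 13.0 CPM in OMVSSDC, 12.7, 13.6 and 17.7 CPM in ZJDC and 16.5, 15.6 and 19.4 CPM in PBSDC. OMVSSDC replicates 1 and 2 were the highest of all libraries, while OMVSSDC replicate 3 lay within the ZJDC range and below every PBSDC library. The log2 fold change of 0.92 in OMVSSDC (SE 0.357, adjusted p 0.0451) therefore rests on OMVSSDC replicates 1 and 2. It was 1.29 (adjusted p 1.3e-10) without replicate 3 and -0.40 with replicate 3 as the only OMVSSDC library. The call was lost when any 1 of the other 8 libraries was left out, with adjusted p between 0.0576 and 0.163. It was also lost under limma-voom (adjusted p 0.133). Imp3 in ZJDC against PBSDC was -0.22 (adjusted p 0.637). Rrp9 had 35.9, 36.2 and 20.4 CPM in OMVSSDC, 23.5, 20.2 and 27.8 CPM in ZJDC and 38.9, 42.5 and 45.3 CPM in PBSDC. Every OMVSSDC library lay below every PBSDC library, yet the log2 fold change of -0.45 had an adjusted p of 0.0694. DESeq2 called Rrp9 lower (adjusted p 0.0328) and limma-voom did not. Rrp9 was also called lower after removal of the trend on length and GC content (-0.77, adjusted p 0.000537). The size of the Rrp9 value depended on OMVSSDC replicate 3. It was -0.23 without replicate 3 (adjusted p 0.0357) and -0.58 and -0.59 without replicate 1 or 2 (0.0442 and 0.0411). With replicate 3 as the only OMVSSDC library it was -1.05. In ZJDC Rrp9 fell by 0.82 (adjusted p 0.006). Rrp9 and Parp3 lie on opposite strands and overlap by 987 bases, and no source used here says whether counting used the strand, so reads of the overlap cannot be told apart. In all, 14 of the 45 genes overlap a gene of the opposite strand. The longer overlaps include those of Tsr1 with Srr (2984 bases), Polr1e with Fbxo10 (2319 bases), Bop1 with Scx (2007 bases) and Heatr1 with Lgals8 (875 bases), and the values of these genes have the same limit. Pes1 overlaps 4930556J24Rik, which averaged 0 counts, by 12804 bases.

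Factors of 60S assembly are represented by 12 genes, of which 11 were called lower in OMVSSDC and all 12 in ZJDC, with median log2 fold changes of -0.96 and -0.79. Nop2, a methyltransferase of the large subunit RNA, had 94.6, 92.4 and 101 CPM in OMVSSDC, 106, 103 and 103 CPM in ZJDC and 225, 239 and 237 CPM in PBSDC. Replicates of each group lay close together and PBSDC stood well above both other groups. Nop2 fell by 1.28 in OMVSSDC (SE 0.060, adjusted p 9.98e-08), and its log2 fold change was -1.17 in ZJDC (adjusted p 3.07e-07). The PeBoW complex, which is needed to process the RNA of the large subunit, is made of Bop1, Pes1 and Wdr12. Bop1 fell by 1.22 and 1.20, Pes1 by 0.80 and 0.74 and Wdr12 by 0.85 and 0.90 on the log2 scale in OMVSSDC and ZJDC. Gnl3, the nucleolar GTPase nucleostemin, fell by 0.89 and 0.76. The smallest called fall in this group was that of Rrs1, a factor that helps to load the 5S RNA, at -0.46 and -0.38. Nip7, a processing factor, had 32.7, 30.0 and 23.4 CPM in OMVSSDC, 21.1, 21.7 and 24.9 CPM in ZJDC and 39.5, 35.0 and 32.5 CPM in PBSDC. OMVSSDC replicate 1 overlapped PBSDC replicate 3, and the value of -0.32 missed the threshold (adjusted p 0.0565), while Nip7 in ZJDC fell by 0.66 (adjusted p 0.00189). In OMVSSDC, Nip7 was called lower by DESeq2 (adjusted p 0.0266) and limma-voom (0.0457). The Nip7 value in OMVSSDC was -0.42 (adjusted p 0.0237) without OMVSSDC replicate 1, -0.20 (0.0574) without replicate 3 and -0.62 with replicate 3 alone.

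**Figure D4:**
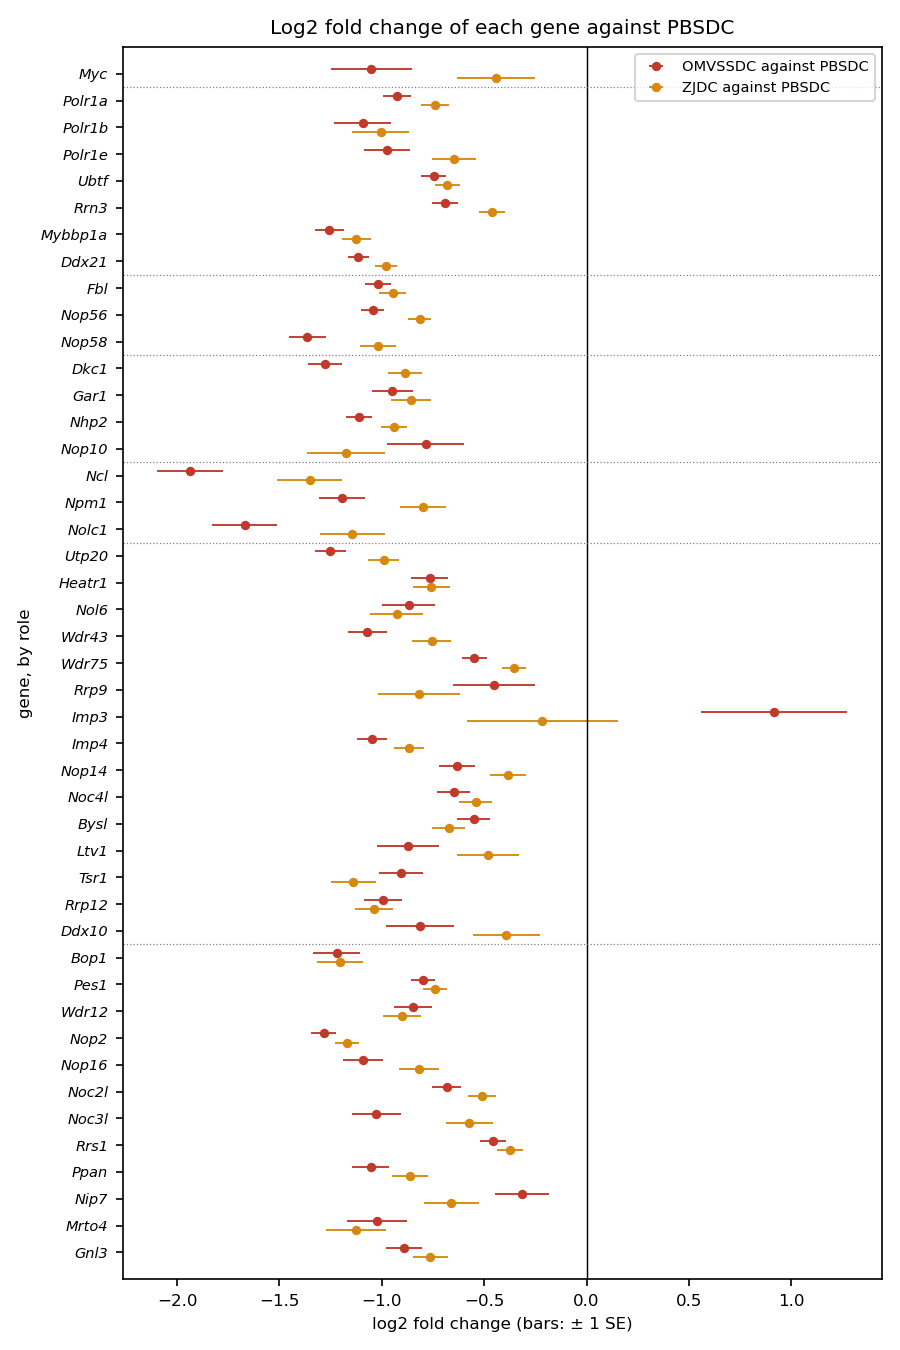
Log2 fold change of each of the 45 genes in OMVSSDC against PBSDC (red) and ZJDC against PBSDC (orange), by role, with bars of ± 1 SE from the model. Nearly all points lie left of 0 in both comparisons, from -1.94 for Ncl in OMVSSDC to the single point on the right, Imp3 at 0.92.

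With all 9 libraries, edgeR called few of the 45 genes between OMVSSDC and ZJDC. This count depended on OMVSSDC replicate 3, as given below. Dkc1 was the only one of the 45 genes called lower in OMVSSDC than in ZJDC (-0.39, SE 0.082, adjusted p 0.0467), where 1.10% of all tested genes were called lower. None was called higher by edgeR, where 0.856% of all tested genes were. At an unadjusted p under 0.05, edgeR gave 22 genes lower and 2 higher, where 14.5% and 17.2% of all tested genes were. At an adjusted p under 0.05, DESeq2 gave 13 lower and 1 higher, where it called 6.95% and 6.62% of all tested genes. limma-voom gave 1 lower and 0 higher, where it called 1.63% and 1.16%. The median log2 fold change was -0.13, against 0.01 over all tested genes. In the order of their means, 35 genes ran from OMVSSDC over ZJDC up to PBSDC and 9 from ZJDC over OMVSSDC up to PBSDC, with Imp3 in neither order. For 21 genes, among them Myc, Ncl, Npm1, Nop56, Nop58 and Dkc1, every OMVSSDC library lay below every ZJDC library, a pattern found in 12.2% of all tested genes. The call of Dkc1 was lost without any 1 of the libraries other than OMVSSDC replicate 3, with adjusted p between 0.0919 and 0.208.

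OMVSSDC replicate 3 weighed heavily on this comparison. For 24 of the 45 genes it lay above OMVSSDC replicates 1 and 2, for 17 below both and for 4 between them. It was over 1.5-fold from their mean for 9 genes, above for Ncl, Nolc1, Ltv1, Ddx10 and Myc and below for Imp3, Rrp9, Nop10 and Mrto4. Against the PBSDC libraries it was nevertheless below their whole range for all 45 genes, and against the ZJDC libraries below the range for 31 genes, within it for 13 and above it for 1, Gnl3. These counts of where replicate 3 lay were not made over all tested genes. Whether they are particular to the 45 genes therefore cannot be told. Without this library, 25 of the 45 genes were called lower in OMVSSDC than in ZJDC and 9 higher, where 28.0% and 27.6% of all tested genes were. With it as the only OMVSSDC library, 3 were called lower (Polr1b, Mybbp1a and Nop56), where 1.79% of all tested genes were. The fall against PBSDC did not turn on it: 43 genes were called lower in OMVSSDC without it, where 36.0% of all tested genes were. With it as the only OMVSSDC library, the median against PBSDC was -0.98 for the 45 genes and 0.01 over all tested genes.

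Per length of gene, the most highly expressed of the 45 genes in FPKM were Npm1 and Ncl in OMVSSDC and in PBSDC alike. Npm1 had 236 ± 35.5 FPKM in OMVSSDC, 298 ± 12.3 FPKM in ZJDC and 496 ± 13.3 FPKM in PBSDC (SD, n = 3 each), and Ncl had 73.7 ± 17.4, 106 ± 8.63 and 260 ± 4.45 FPKM in those groups. Myc was among the lowest, at rank 43 of 45 in PBSDC. The table divides by a gene length that can exceed that of any 1 transcript, 10188 bases for Ncl, which lowers the FPKM of such genes and bears on this order.

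The Myc network, the partners and rivals of Myc, held genes called in each direction. Of 11 tested genes, 6 were called higher and 2 lower in OMVSSDC than in PBSDC, and 2 higher and 2 lower in ZJDC, with median log2 fold changes of 0.24 and 0.07. Over all tested genes, 33.4% were called higher and 30.2% lower in OMVSSDC, and 27.6% higher and 27.1% lower in ZJDC, so the 2 of 11 in each direction in ZJDC, and the 2 lower in OMVSSDC, are no larger a share than that of all genes. Without OMVSSDC replicate 3 the number higher in ZJDC was 4, as Mxd4 (adjusted p 0.00509) and Zbtb17 (0.0169) then passed. That fit called 8242 of 11761 tested genes in either direction in ZJDC against PBSDC. Mxd1, a repressor that competes with Myc for Max, had 72.1, 71.0 and 83.2 CPM in OMVSSDC, 63.3, 64.9 and 67.8 CPM in ZJDC and 21.1, 17.6 and 23.2 CPM in PBSDC. It rose by 1.87 in OMVSSDC (SE 0.107, adjusted p 3.27e-07) and by 1.66 in ZJDC (adjusted p 1.1e-06), with no overlap between either group and PBSDC. Max, the common partner, had 64.6, 63.3 and 93.6 CPM in OMVSSDC, 92.7, 89.0 and 78.1 CPM in ZJDC and 131, 129 and 129 CPM in PBSDC. It fell by 0.81 (adjusted p 0.000494) and by 0.58 (adjusted p 0.00461) in OMVSSDC and ZJDC. OMVSSDC replicate 3 was the highest of the 6 OMVSSDC and ZJDC libraries for Max, and with it as the only OMVSSDC library the value was -0.48.

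Mxd3, another Max-binding repressor, was low throughout, at 0.637 ± 0.199 CPM in OMVSSDC, 0.839 ± 0.349 CPM in ZJDC and 2.0 ± 0.441 CPM in PBSDC (SD, n = 3 each). Mxd3 fell by 1.67 in OMVSSDC and by 1.26 in ZJDC, and the call in ZJDC was lost without PBSDC replicate 1 (adjusted p 0.0515). Mxi1, of the same family, rose by 0.30 in OMVSSDC and by 0.46 in ZJDC, and the call in OMVSSDC was lost without PBSDC replicate 1 (adjusted p 0.113) or PBSDC replicate 2 (0.0588). With replicate 3 as the only OMVSSDC library Mxi1 was 0.47. Mxd4 rose by 0.69 in OMVSSDC, but with replicate 3 as the only OMVSSDC library the value was 0.36. Small rises in OMVSSDC were called for Zbtb17, the Myc-binding zinc finger protein, at 0.37, for the glucose-sensing Mlxip at 0.27 and for the Max-binding repressor Mnt at 0.24. All 3 calls were lost after removal of the trend on length and GC content. Zbtb17 was then 0.10 (adjusted p 0.329), Mlxip 0.11 (0.172) and Mnt -0.03 (0.793). The Mnt call was lost without PBSDC replicate 2 (adjusted p 0.0593) or PBSDC replicate 3 (0.0545). Mlxip was 0.14 with replicate 3 as the only OMVSSDC library. Mga, Mlx and Fbxw7, the ubiquitin ligase adaptor that marks Myc for decay, were not called in either comparison, at -0.18, -0.04 and 0.03 in OMVSSDC and -0.02, -0.05 and 0.15 in ZJDC. Without OMVSSDC replicate 3, Mga was called lower in OMVSSDC (-0.33, adjusted p 2.19e-06). After removal of the trend on length and GC content it was called lower in both (-0.15, adjusted p 0.0264, in OMVSSDC and -0.17, adjusted p 0.0154, in ZJDC). Mlx in OMVSSDC was -0.26 with replicate 3 as the only OMVSSDC library. The paralogs Mycn and Mycl had at most 1 count in any library, and Mlxipl at most 2.

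Further Myc targets outside the 45 genes, mostly of metabolism and the cell cycle, were mainly lower. Of 26 tested, 22 were called lower and 2 higher in OMVSSDC, with a median of -0.83, and 22 lower and 2 higher in ZJDC, with a median of -0.81. Among all tested genes, 30.2% were called lower and 33.4% higher in OMVSSDC, and 27.1% lower and 27.6% higher in ZJDC. Tfrc, the transferrin receptor, had 57.6 ± 5.75 CPM in OMVSSDC, 58.2 ± 3.71 CPM in ZJDC and 198 ± 3.85 CPM in PBSDC (SD, n = 3 each). It fell by 1.78 in OMVSSDC (adjusted p 9.98e-08) and by 1.76 in ZJDC (adjusted p 2.08e-07). Ppat, an enzyme of purine synthesis, fell by 1.39 and 1.18. The 2 higher genes were Tert, the telomerase reverse transcriptase, at 0.57 (adjusted p 0.0319) and 0.61 (0.0269), and the amino acid transporter subunit Slc3a2 at 0.17 (0.0193) and 0.21 (0.00901) in OMVSSDC and ZJDC. Tert lost its call in OMVSSDC without OMVSSDC replicate 1, 2 or 3 or PBSDC replicate 2 or 3 (adjusted p 0.0504 to 0.109), and in ZJDC without ZJDC replicate 2 or 3 or PBSDC replicate 2 or 3 (0.0699 to 0.111). Slc3a2 lost its call in OMVSSDC without OMVSSDC replicate 1 or 2 or PBSDC replicate 1 or 3 (adjusted p 0.0572 to 0.0825). After removal of the trend on length and GC content, neither gene was called in OMVSSDC. Tert was then 0.42 (adjusted p 0.0933) and Slc3a2 0.03 (0.565). Both calls in OMVSSDC were also lost with the replicate number as a block (adjusted p 0.0567 for Tert and 0.0524 for Slc3a2).

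Other genes of ribosome production were also mostly lower, except within RNA polymerase I. The counts of these lists stand beside 30.2% of all tested genes called lower and 33.4% called higher in OMVSSDC. In ZJDC these shares were 27.1% and 27.6%. Of 12 further RNA polymerase I genes, 5 were called lower and 2 higher in OMVSSDC (median -0.23) and 5 lower and 1 higher in ZJDC (median -0.31). Without ZJDC replicate 2 or 3, or PBSDC replicate 1 or 3, the count lower in ZJDC was 3, and without OMVSSDC replicate 3 it was 9. The former fits called 5472 to 5549 tested genes in either direction, and the latter 8242 of 11761. The count higher in OMVSSDC was 4 without OMVSSDC replicate 3, where 8813 of 11761 tested genes were called in either direction. The subunit gene Cd3eap had 8.51, 7.32 and 8.12 CPM in OMVSSDC, 9.87, 11.1 and 10.1 CPM in ZJDC and 30.0, 31.3 and 29.3 CPM in PBSDC, and fell by 1.92 and 1.55. Polr1f, also a subunit, fell by 0.81 and 0.53. Baz2a, a part of the complex that silences ribosomal DNA, rose by 0.42 (adjusted p 0.000857) and 0.46 (0.000664) in OMVSSDC and ZJDC, and Taf1b, of the promoter selectivity factor, rose by 0.42 in OMVSSDC (adjusted p 0.00683). Taf1b in OMVSSDC was 0.23 with replicate 3 as the only OMVSSDC library. Of 41 further small subunit genes, 34 were called lower and 1 higher in OMVSSDC (median -0.58) and 29 lower and 1 higher in ZJDC (median -0.49). Wdr46 fell by 1.08 and 1.06 and Utp4 by 0.95 and 0.76, while Utp23 rose by 0.65 and 0.50. Without OMVSSDC replicate 3, 2 genes of this list were called higher in OMVSSDC (Utp23 and Tsr3).

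Of 45 further large subunit genes, 36 were called lower and 1 higher in OMVSSDC (median -0.75) and 35 lower and 0 higher in ZJDC (median -0.58). In ZJDC 0 were higher also at an unadjusted p under 0.05 by edgeR, DESeq2 or limma-voom, and 1 was higher without OMVSSDC replicate 3. All tested genes were called lower in 30.2% of cases in OMVSSDC and 27.1% in ZJDC. They were called higher in 33.4% and 27.6%. These shares also apply to the snoRNP assembly factors below. Ftsj3, an RNA methyltransferase, had 87.1, 80.9 and 96.2 CPM in OMVSSDC, 120, 113 and 112 CPM in ZJDC and 264, 268 and 267 CPM in PBSDC. It fell by 1.60 in OMVSSDC and fell by 1.21 in ZJDC, and the helicase gene Ddx18 fell by 1.32 and 1.08. Eif6, which keeps the large subunit from joining too early, was the gene called higher in OMVSSDC, at 0.55 (adjusted p 0.0497). It had 125, 112 and 57.9 CPM in OMVSSDC, 61.6, 61.5 and 63.5 CPM in ZJDC and 60.6, 69.3 and 71.1 CPM in PBSDC, so that it was high in OMVSSDC replicates 1 and 2 and not in replicate 3. With replicate 3 as the only OMVSSDC library, the Eif6 value against PBSDC was -0.21. Leaving out any 1 of the other 8 libraries ended the call (adjusted p 0.0688 to 0.194). Of 12 snoRNP assembly factors, 9 were called lower in OMVSSDC (median -0.54) and 7 in ZJDC (median -0.37), among them Snu13 (-0.87 and -0.83) and Znhit3 (-0.66 and -0.69). No snoRNP assembly factor was called higher in either comparison by edgeR, DESeq2 or limma-voom, nor at an unadjusted p under 0.05 (0 genes by each), but 2 were called higher in OMVSSDC without OMVSSDC replicate 3 (Pih1d1 and Shq1).

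Cytoplasmic ribosomal proteins, the building blocks rather than the builders of the ribosome, did not follow the 45 genes. Of 78 tested, 46 were called higher and 3 lower in OMVSSDC than in PBSDC, and 4 higher and 2 lower in ZJDC, with median log2 fold changes of 0.43 and 0.05. Over all tested genes, 33.4% were called higher and 30.2% lower in OMVSSDC, and 27.6% higher and 27.1% lower in ZJDC. They held 4.11%, 4.02% and 2.81% of all counts in OMVSSDC, 2.75%, 2.79% and 2.97% in ZJDC and 2.56%, 2.58% and 2.59% in PBSDC. OMVSSDC replicates 1 and 2 were the highest, and OMVSSDC replicate 3 lay among the ZJDC libraries. The count of higher genes in OMVSSDC was 27 without OMVSSDC replicate 1, 27 without replicate 2 and 28 without PBSDC replicate 1. Those fits called 6769 of 11740, 6611 of 11673 and 6555 of 11690 tested genes in either direction. With replicate 3 as the only OMVSSDC library the median log2 fold change was 0.00. Without OMVSSDC replicate 3, 6 were lower in OMVSSDC, where 36.0% of all tested genes were. In ZJDC the same fit gave 28 higher and 11 lower, where 8242 of 11761 tested genes were called in either direction. Rps24 rose by 0.65 and 0.45 and Rpl17 by 0.52 and 0.33 in OMVSSDC and ZJDC, whereas Rps2 fell by 0.43 and 0.25. Rpl21, at 1.09 ± 0.185 CPM in OMVSSDC, 1.38 ± 0.534 CPM in ZJDC and 3.13 ± 0.452 CPM in PBSDC (SD, n = 3 each), gave -1.53 and -1.21. Many ribosomal protein genes have processed pseudogenes that can share their reads, so single values of this family are uncertain.

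**Figure D5:**
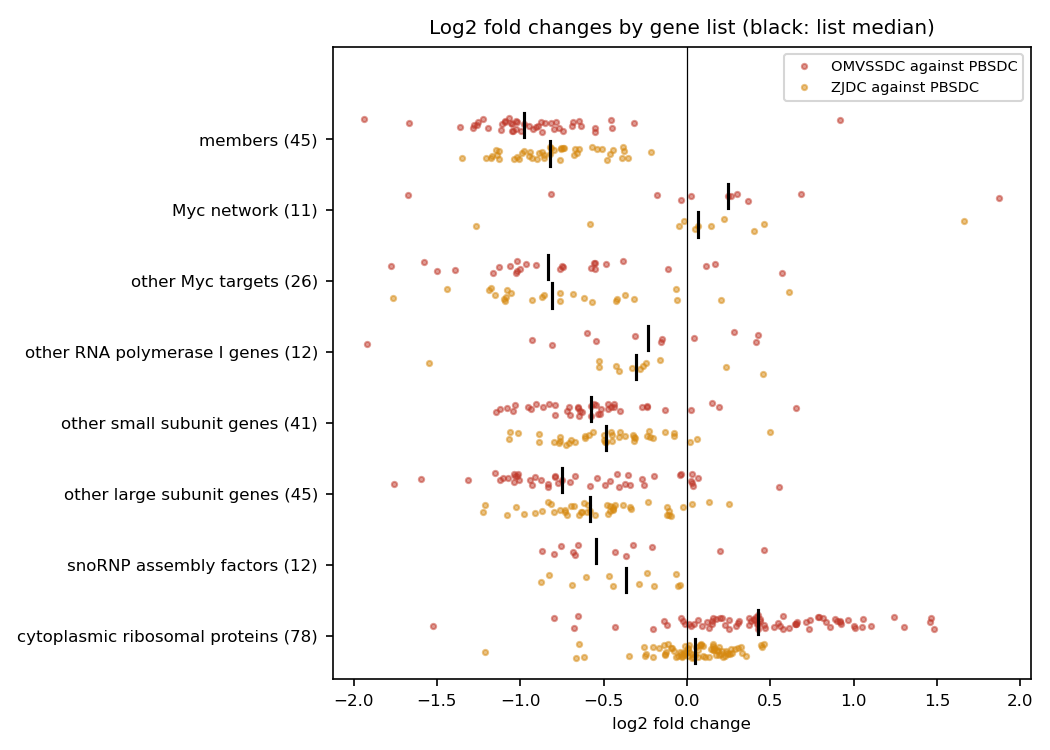
Log2 fold changes of the 45 genes (top row, members) and of 7 other gene lists (number of tested genes in brackets) in OMVSSDC against PBSDC (red) and ZJDC against PBSDC (orange), 1 point per gene, with the median of each list as a black bar. The medians of the 45 genes lie at -0.97 and -0.82, and those of the ribosomal proteins at 0.43 and 0.05.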

How the data were processed

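The authors deposited 1 table of RNA sequencing results with 9 count columns and 9 FPKM columns. Per the submitters' processing notes, fastp 0.22.0, HISAT2 2.1.0 and HTSeq 0.9.1 were used. No source used here gives the genome build or says whether strand was used. The deposited counts are whole, unnormalized reads per gene. The deposited FPKM values were matched, to within 4.1e-06, by dividing counts by gene length and library total, and served only to compare levels between genes.

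Groups were read from the sample titles. Counts were analysed with edgeR 4.0.16 in R 4.3.3. filterByExpr (10 counts at least, 15 in total) left 11568 genes, libraries were scaled by TMM, and a robust quasi-likelihood model with the group as its only factor was fitted to all 9 libraries (6 residual degrees of freedom). Contrasts were tested two-sided with Benjamini-Hochberg adjustment over all tested genes, and a gene was called at an adjusted p under 0.05. CPM are TMM-scaled, shares of counts and marker sums are not. The SE is the absolute log2 fold change over the root of F, and SDs are over 3 libraries. The fit was tested on simulated data, in which no library stood apart from its group as OMVSSDC replicate 3 did. Of 100 genes changed 1.5-fold it recovered 80 in OMVSSDC against PBSDC, 72 in ZJDC against PBSDC and 76 in OMVSSDC against ZJDC. At 2-fold it recovered 98, 96 and 98. False calls were 16 of 194, 16 of 184 and 3 of 177.

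The genes, the lists and the tests were chosen with earlier results of these data known. By rule, single-library values are given for Myc, for the gene of each role with the largest fall and the one with the highest CPM, and for a gene called against the rest. Every tested gene of the Myc network is named, and of each other list the 2 genes per direction with the smallest adjusted p in OMVSSDC against PBSDC. Library values of Nolc1, Nop10, Rrp9, Nip7 and of genes outside the 45, and the names Pih1d1, Shq1 and Tsr3, were added after values were seen. Intervals and floors cover counting error or the model's spread only. Alternatives were RLE or library-size scaling, no filter or a stricter one (at least 50 counts and 1 CPM in 3 libraries), DESeq2 1.42.0, limma-voom 3.58.1, the replicate number as a block, only the 2 groups compared, each library left out, OMVSSDC replicate 3 as the only OMVSSDC library, and a trend on gene length and GC content removed (GC known for 99.7% of tested genes).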

Additional observations from a re-analysis of the deposited data

How the results depend on the processing

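Against PBSDC, 42 of the 45 genes kept the same call in OMVSSDC under every alternative run, and 42 did in ZJDC; against ZJDC 8 did. The number of genes lower stayed between 42 and 44 in OMVSSDC and between 41 and 44 in ZJDC. The 1 gene higher in OMVSSDC, Imp3, became 0 with no filter, limma-voom, only the 2 groups compared or the length and GC trend removed. Leaving out single libraries gave 0 to 1. With replicate 3 as the only OMVSSDC library the log2 fold change of Imp3 was -0.40. For OMVSSDC against ZJDC, the 1 gene lower became 13 with DESeq2, 0 with only the 2 groups compared and 7 with the trend removed. Those fits called 1570 of 11568, 0 of 11430 and 609 of 11568 tested genes in either direction. Leaving out single libraries gave 0 to 25 lower, and the 0 genes higher became 1 with DESeq2 and 0 to 9. The 25 and 9 came without OMVSSDC replicate 3, where 6539 of 11761 tested genes were called in either direction. Myc in ZJDC against PBSDC passed with only the 2 groups compared (-0.44) and with replicate 3 as the only OMVSSDC library (-0.44), and ranged from -0.55 to -0.31 over left-out libraries. Myc in OMVSSDC against ZJDC passed with DESeq2 (-0.62) and ranged from -0.89 to -0.45. In OMVSSDC against PBSDC, Mnt was -0.033 with the trend removed and Eif6 was -0.21 with replicate 3 as the only OMVSSDC library. Scaling by library totals alone moved the median of all genes to 0.18 in OMVSSDC against PBSDC, with the 45 genes at -0.85. Deviations from the group means correlated at -0.39 to 0.09 between libraries of the same replicate number, and at -0.20 to 0.33 between different numbers. With 3 libraries in a group this cannot show whether libraries were handled in pairs. With the number as a block, 42 genes were lower and 0 higher in both comparisons with PBSDC, and 0 lower in OMVSSDC against ZJDC. The causes were not tested. In the ribosomal proteins, ZJDC against PBSDC gave 28 higher with only the 2 groups compared, against 4, and 9 with library totals alone. Those fits called 8009 of 11398 and 6349 of 11568 tested genes in either direction. The Myc network genes higher in OMVSSDC numbered 3, against 6, with the trend removed, where 7604 of 11568 tested genes were called in either direction.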
